A study of Mus musculus with 21 samples.

Results

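The comparison set out here is that of SOX17FNV-rescued cells against untransduced cells of the same mouse embryonic stem cell line, 2TS22C, both grown in serum and LIF with 2i. It holds 7 of the 21 libraries of the study and all 16443 genes of its deposited table: 4 FNV libraries (SOX17FNV brought in by lentivirus, endogenous SOX2 silenced, labelled as treated with DOX) and 3 NTC libraries (genotype labelled WT, not transduced, with no DOX in their labels). The members were chosen by the names of the columns and by no measured value. Transduction, doxycycline, the loss of SOX2 and the gain of SOX17FNV all separate the groups and cannot be told apart in this contrast. Libraries called replicates 1 and 2 form a first batch in each group, and those called p21 and p31 (FNV) or p31 (NTC) a second one. The sample titles call the second ones biological replicates. The labels do not state whether replicates 1 and 2 are independent cultures, and the spread between libraries on which the p-values rest may therefore be technical. Values are given in the order replicate 1, replicate 2, p21 and p31 for FNV, and replicate 1, replicate 2 and p31 for NTC.

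SOX2 is the SRY-box factor that binds DNA together with OCT4 (Pou5f1) and holds embryonic stem cells in the pluripotent state. SOX17 belongs to the same family, is best known as a factor of endoderm and vascular development, and in its native form does not replace SOX2; SOX17FNV is an engineered form. The 2i supplement blocks MEK and GSK3, which dampens ERK signalling and stabilises beta-catenin, and with LIF it favours the naive state.

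The unit is a whole-number normalized value, forced by the authors' processing to nearly the same distribution in every library, with totals from 14044316 to 14047262. Depth is therefore unknown and a value can be read only against other libraries. The 10 highest genes of each library share the value 76006, and the 1500 genes above 2000 share 272 distinct values, so the highest genes move in steps. Fold changes are differences of log2(value + 1) from a limma model over all 21 libraries with a term for the batch, given with their standard error (SE), and a gene changed when its adjusted p over all genes was under 0.05. The targeted genes went with the labels. Sox2 (chromosome 3, 34650405 to 34652461, plus strand, GRCm38) had 35, 36, 43 and 19 in FNV, against 1310, 1362 and 2697 in NTC libraries (log2 change -5.67 ± 0.32, adjusted p = 8.7e-09). Sox17 (chromosome 1, 4490931 to 4497354, minus strand) had 3160, 3301, 1792 and 2659 in FNV, against 1, 0 and 0 in NTC libraries, where reads of the endogenous gene and of the transgene are not separated. The 12 markers that define embryonic stem cells were all detected, with summed values of 80542 to 96817 in FNV and 57369 to 94030 in NTC libraries. The 14 measured fibroblast markers summed to 359 to 463 in FNV and 1525 to 4447 in NTC libraries, a sum led by Vim, and their part in the results was not tested. In bulk samples fewer cells of a type and less RNA per cell cannot be told apart.

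Of the 16443 genes, 6529 (39.7%) changed, 3233 (19.7%) higher and 3296 (20.0%) lower in FNV than in NTC. At least 2-fold changes were 1368 higher (8.32%) and 1203 lower (7.32%). The median over all genes was -0.01 on the log2 scale. These shares are the background for the counts of each gene list below in this contrast. Between FNV and SOX2-rescued cells in 2i, 4150 genes (25.2%) differed. Of the 116 genes given in the report, 114 changed against NTC, and 83 also differed from SOX2-rescued cells in the same direction. For the others no such difference was called, so their change from NTC is not shown to be particular to FNV. Among these were Bax, Ccnd1, Ctgf, Dhcr7, Inhbb, Kdm2b, Ldha, Lin28a, Myof, Phgdh, Plk2, Sfrp1, Slc16a3, Slc2a1, Tgfb1 and Uqcrc1. Nor does a difference from SOX2-rescued cells show this, since miniSOX-rescued cells in 2i were not tested against FNV. In miniSOX cells Lifr stood at 188 and 165, within the FNV range, and Krt18 at 716 and 738, below every FNV library. The batches rest on separate libraries, so the first can be set against the second. Of 1399 genes called and at least 2-fold higher in the first batch, 91.1% were also higher in the second and 63.0% at least 2-fold, against 48.3% and 13.3% of all genes. Of 1343 such lower genes, 87.1% were lower in the second batch and 58.2% at least 2-fold, against 49.6% and 11.6% of all genes. Across 12133 genes with a mean of at least 50, the log2 changes of both batches had a Pearson correlation of 0.589, a description over genes that are not independent. A direct test of the difference between batches called 1513 genes (9.20%). The spread between libraries was smaller within the first batch: among 3378 genes of middle level the SD of the log2 difference was 0.15 between FNV replicates 1 and 2 and 0.436 between FNV p21 and p31, and 0.107 between NTC replicates 1 and 2 and 0.604 between NTC replicate 1 and p31. When replicates 1 and 2 were averaged, 3991 genes changed, 2065 higher and 1926 lower. The second batch alone, with 1 NTC library, also called fewer genes. A lower list count in either fit is therefore not by itself a difference between batches.

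**Figure D1:**
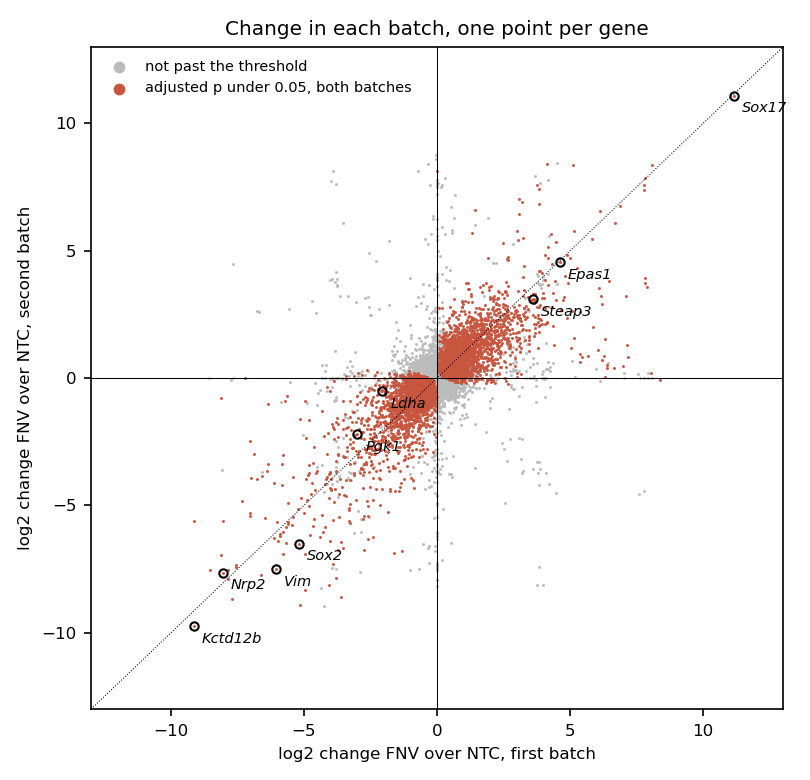
Log2 change of FNV over NTC in the first batch (x axis) and in the second batch (y axis), one point per gene with a mean of at least 50 in either group, coloured where the gene changed over both batches (adjusted p under 0.05). Called genes lie mainly in the lower left and upper right, with Sox17 and Kctd12b at the ends; a minority lies along one axis or in the opposite corners.

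Apart from the rescue factor and genes listed at 0, the largest increases were in secreted and matrix proteins, cytochromes P450 and a hypoxia-inducible factor. Epas1 (chromosome 17, 86753700 to 86833410, plus strand), which encodes HIF-2alpha, had 833, 766, 802 and 1197 in FNV, against 35, 29 and 41 in NTC libraries (log2 change 4.54 ± 0.26, adjusted p = 1.34e-08). Every FNV library stood far above every NTC library, in both batches. Tgfbi, a matrix protein induced by TGF-beta, had 342, 343, 491 and 360 in FNV, against 20, 16 and 15 in NTC libraries (log2 change 4.42 ± 0.25, adjusted p = 8.7e-09). Nptx2, a secreted neuronal pentraxin, had 1870, 1932, 1900 and 6247 in FNV, against 107, 82 and 154 in NTC libraries (log2 change 4.44 ± 0.29, adjusted p = 4.47e-08), with FNV p31 well above the other FNV libraries. Sdc3, the heparan sulfate proteoglycan syndecan-3, had 764, 744, 772 and 469 in FNV, against 40, 42 and 16 in NTC libraries (log2 change 4.57 ± 0.25, adjusted p = 7.79e-09). For Sdc3 the lowest library of each group was p31, and the groups lay far apart. Of the cytochromes, Cyp2s1 had 943, 943, 1007 and 1166 in FNV, against 28, 35 and 37 in NTC libraries (log2 change 4.73 ± 0.34, adjusted p = 1.04e-07). Cyp4f39 had 405, 434, 325 and 193 in FNV, against 18, 24 and 4 in NTC libraries (log2 change 4.76 ± 0.39, adjusted p = 3.01e-07), a change of 4.15 without NTC p31. For Arhgef16, a guanine nucleotide exchange factor, the values were 390, 439, 259 and 182 in FNV, against 11, 9 and 10 in NTC libraries (log2 change 4.79 ± 0.28, adjusted p = 1.61e-08). The second-batch FNV libraries were the lower ones for Cyp4f39 and Arhgef16. Inhbb, the beta B subunit of activin and inhibin, had 84, 72, 31 and 86 in FNV, against 2, 1 and 1 in NTC libraries (log2 change 4.89 ± 0.39, adjusted p = 2.77e-07). The rule asked for genes without overlap between groups, which 16.0% of all genes met as higher and 15.6% as lower. The rule also named Vmn1r77 (336, 344, 262 and 186 in FNV, against 5, 5 and 4 in NTC libraries) and Rab3c (53, 54, 46 and 138 in FNV, against 1, 2 and 1 in NTC libraries), but both switched between replicates of other groups: in SOX2-rescued cells in 2i, Vmn1r77 stood at 311, 6, 4 and 215 and Rab3c at 2, 2, 42 and 1. Vomeronasal receptors such as Vmn1r77 form a large family of like sequences, among which reads may be shared out uncertainly. Neither passed the test in the second batch alone.

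**Figure D2:**
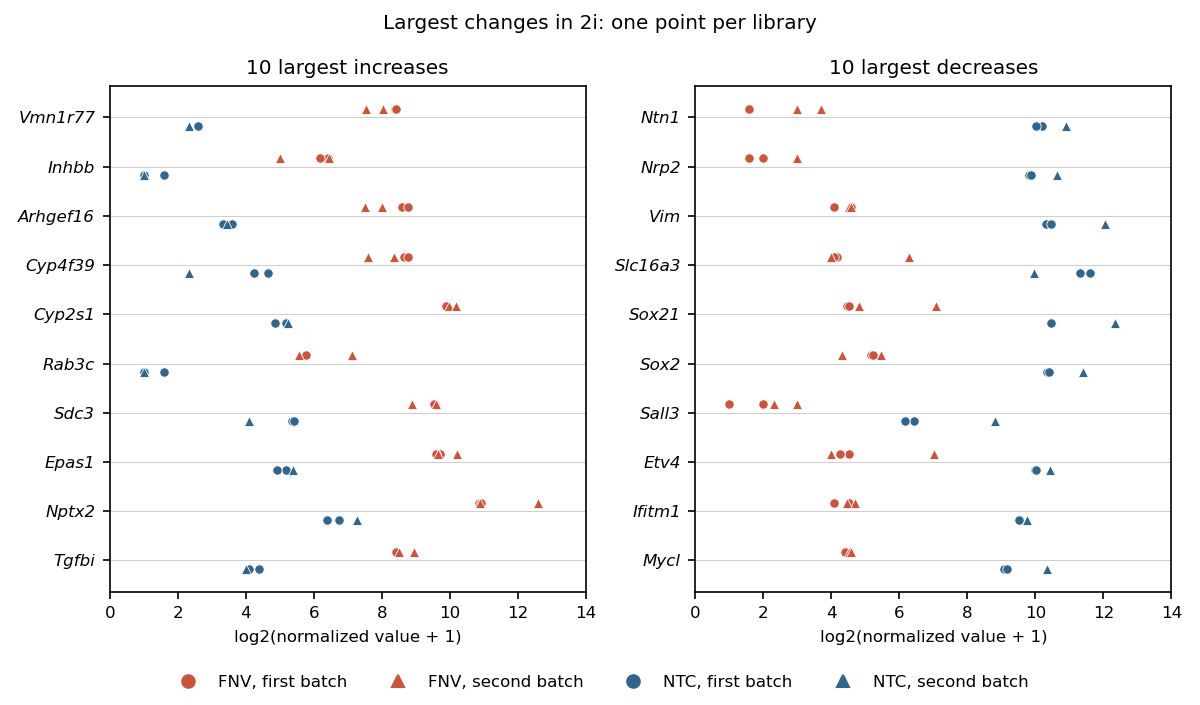
Log2(normalized value + 1) of the 10 largest increases (left) and the 10 largest decreases (right), one point per library, FNV above NTC in each row, circles for the first and triangles for the second batch. In each gene every FNV library lies apart from every NTC library, which the rule for these genes required, and by a wide margin.

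The largest decreases fell in guidance cues, a cytoskeletal filament and transcription factors. Vim (chromosome 2, 13573927 to 13582826, plus strand), the intermediate filament protein vimentin of mesenchymal cells, had 16, 23, 22 and 23 in FNV, against 1272, 1422 and 4232 in NTC libraries (log2 change -6.63 ± 0.25, adjusted p = 1.98e-10). The FNV libraries lay within a narrow range, and NTC p31 stood above both other NTC libraries. For Vim, the log2 change was -7.49 in the second batch and -6.06 in the first (adjusted p of the difference = 0.0328). Netrin-1 and neuropilin-2, a secreted guidance cue and a co-receptor for semaphorins, fell furthest among the genes with no library listed at 0: Ntn1 had a log2 change of -8.08 and Nrp2 of -7.84. Sox21 (chromosome 14, 118233232 to 118237030, minus strand), a repressor of the SoxB group, had 21, 22, 27 and 135 in FNV, against 1415, 1399 and 5155 in NTC libraries (log2 change -6.15 ± 0.43, adjusted p = 6.77e-08), again with FNV p31 above the other FNV libraries. Sall3, a zinc-finger factor, had 3, 1, 4 and 7 in FNV, against 85, 70 and 453 in NTC libraries (log2 change -5.33 ± 0.40, adjusted p = 1.39e-07). Mycl, the L-Myc factor, had 22, 20, 22 and 23 in FNV, against 538, 572 and 1309 in NTC libraries (log2 change -5.16 ± 0.24, adjusted p = 1.56e-09). For Mycl, the log2 change was -5.80 in the second batch and -4.66 in the first (adjusted p of the difference = 0.0443). Ifitm1, an interferon-inducible membrane protein, had 22, 16, 25 and 21 in FNV, against 735, 726 and 855 in NTC libraries (log2 change -5.24 ± 0.16, adjusted p = 2.49e-11), at a like level in the libraries of each group. Etv4, an ETS factor downstream of ERK, had 22, 18, 15 and 129 in FNV, against 1025, 1028 and 1379 in NTC libraries, and the log2 change of -5.30 became -5.89 without FNV p31. The lactate exporter Slc16a3 completes the 10 with Sox2 and is described with glycolysis.

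A further 14 genes were listed at 0 in every library of one group and at 50 or more in every library of the other, 7 in each direction. Kctd12b (X chromosome, 153685154 to 153696391, minus strand) was listed at 0 in all FNV libraries, against 554, 577 and 861 in NTC libraries, and 4932411N23Rik at 0, against 273, 197 and 187. Cxcl5, a chemokine, was listed at 0 against 182, 232 and 412; Themis, known from T-cell selection, at 0 against 191, 183 and 160; and Spink1, a trypsin inhibitor, at 0 against 99, 96 and 212. In the other direction Lamp3, a lysosomal membrane protein, had 256, 194, 312 and 166 in FNV libraries and 0 in all NTC libraries, and Syt4, a synaptotagmin, 104, 128, 125 and 90 against 0. Olfr173 (194, 378, 234 and 456), Skint2 (199, 239, 238 and 153) and Vmn1r4 (251, 187, 176 and 156) were likewise listed at 0 in NTC libraries. Most of these values do not look graded: 11 of the 14 genes have no value from 1 to 20 in any of the 21 libraries, and replicates of 1 group can differ in the same way, as for Lamp3 in SOX2-rescued cells (0, 0, 271 and 299) and Themis (0, 250, 0 and 0). Skint2 was not called without NTC p31, nor Lamp3 or Themis with first-batch replicates averaged, and in the second batch alone Cxcl5, Lamp3, Skint2, Spink1, Syt4 and Themis were not called. A listed 0 therefore does not show absence, and no fold is given.

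Naive pluripotency genes moved both ways, and formative genes were mostly lower. Of 22 naive genes 5 rose and 10 fell, with a median log2 change of -0.15. The median turned between batches: it was 0.15 in the second batch alone and -0.52 in the first alone. In the first alone 5 rose and 11 fell, against 3431 and 3541 of all 16443 genes. By the test of the difference 9 of the 22 had a higher change in the second batch and 0 a lower one, against 4.77% and 4.43% of all genes. Of 20 general pluripotency genes 5 rose and 6 fell (median 0.10). Of 19 formative and primed genes 2 rose and 12 fell (median -1.52), all against 19.7% higher and 20.0% lower of all genes. The core factors did not pass the test: Pou5f1 had 9718, 9718, 10050 and 12486 in FNV, against 9718, 10739 and 8466 in NTC libraries (log2 change 0.09 ± 0.14, adjusted p = 0.661). Nanog had 18500, 19699, 18500 and 13693 in FNV, against 19699, 19699 and 11820 in NTC libraries (log2 change 0.13 ± 0.12, adjusted p = 0.43). The groups overlapped in both. Nr0b1 (DAX1), an orphan nuclear receptor of the naive network, was among the largest falls, with 0, 2, 7 and 11 in FNV, against 486, 430 and 483 in NTC libraries (log2 change -6.93 ± 0.58, adjusted p = 3.95e-07). For Nr0b1 the log2 change was -5.63 in the second batch and -8.05 in the first (adjusted p of the difference = 0.033). Without FNV replicate 1, which is listed at 0, its log2 change was -6.18. Among naive genes that rose, Dppa3 (Stella), which protects maternal methylation marks in the zygote, had 1792, 1842, 2579 and 976 in FNV, against 337, 317 and 387 in NTC libraries (log2 change 2.27 ± 0.24, adjusted p = 3.7e-06). Spp1, which encodes the secreted protein osteopontin, had 14822, 14822, 11389 and 9369 in FNV, against 4233, 4307 and 2800 in NTC libraries (log2 change 1.85 ± 0.15, adjusted p = 2.32e-07). Of general genes, Utf1 and Fbxo15, both long used as stem cell markers, rose by 1.32 and 1.09 on the log2 scale. Their groups did not overlap, which the rule that named them required. For Utf1, the log2 change was 2.07 in the second batch and 0.84 in the first (adjusted p of the difference = 0.0201). Lin28a, which blocks maturation of let-7, had 33, 32, 38 and 120 in FNV, against 174, 199 and 543 in NTC libraries (log2 change -2.69 ± 0.31, adjusted p = 8.83e-06). For Lin28a, FNV p31 lay between the other FNV libraries and the NTC libraries. SOX2-rescued cells in 2i had Lin28a at 29, 26, 113 and 50, and no difference from FNV was called (adjusted p = 0.95). Of formative genes, Zic2 had 16, 11, 7 and 17 in FNV, against 262, 214 and 316 in NTC libraries (log2 change -4.23 ± 0.40, adjusted p = 1.31e-06). Foxd3, a forkhead factor needed in the epiblast, had 15, 19, 12 and 67 in FNV, against 233, 262 and 97 in NTC libraries, a log2 change of -3.01 that became -3.75 without NTC p31. The count of general genes that rose fell to 3 without NTC replicate 2, NTC p31, FNV replicate 1 or FNV replicate 2; that of formative genes that rose is 1 in every fit that left out NTC replicate 1 or an FNV library. Fbxo15 and Foxd3 did not pass the test in the second batch alone.

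**Figure D3:**
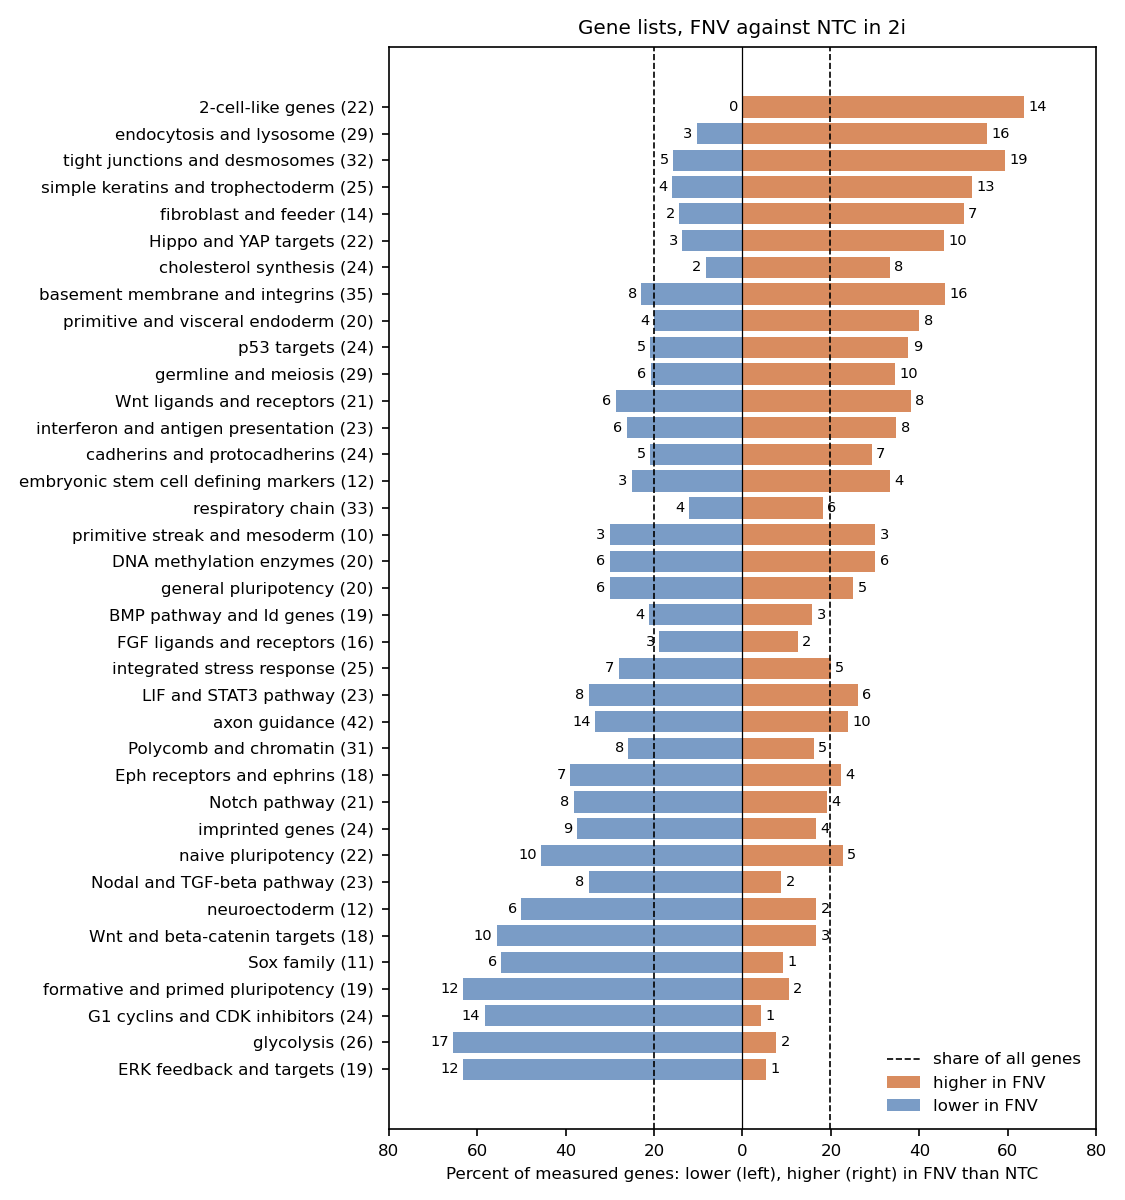
Share of the measured genes of each list that were higher (right, orange) or lower (left, blue) in FNV than in NTC in 2i at an adjusted p under 0.05, with the number of genes at each bar and the number measured in brackets. Dashed lines mark the shares over all genes, 19.7% higher and 20.0% lower. Tight junctions, keratins and lysosomal genes extend furthest to the right beside the 2-cell-like genes, and glycolysis, ERK and formative genes furthest to the left.

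The receptor for LIF was lower in FNV cells. LIF binds a heterodimer of LIFR and gp130 (Il6st), which activates STAT3, and SOCS proteins feed back on it. Of 23 genes of the pathway 6 rose and 8 fell (median -0.17). Lifr (chromosome 15, 7090614 to 7197489, plus strand) had 138, 141, 208 and 278 in FNV, against 1119, 936 and 1219 in NTC libraries (log2 change -2.63 ± 0.13, adjusted p = 3.86e-09). Socs2, a feedback inhibitor, had 127, 150, 112 and 208 in FNV, against 655, 611 and 437 in NTC libraries (log2 change -1.91 ± 0.18, adjusted p = 1.41e-06). Cish, an inhibitor of the same family, had 30, 31, 40 and 54 in FNV, against 12, 4 and 9 in NTC libraries (log2 change 2.02 ± 0.36, adjusted p = 0.000397). All FNV libraries lay below all NTC libraries for Lifr and Socs2 and above them for Cish. The rule that named these genes required such a separation.

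Glycolysis genes were lower. Glycolysis turns glucose into pyruvate, lactate dehydrogenase turns pyruvate into lactate, and monocarboxylate transporters export it; naive and primed stem cells are known to differ in their use of it. Of 26 genes 17 fell and 2 rose (median -1.06), and 13 of the 17 fell at least 2-fold. The glucose transporter Slc2a1 (GLUT1) had 564, 581, 1553 and 752 in FNV, against 6370, 7059 and 3376 in NTC libraries (log2 change -2.81 ± 0.32, adjusted p = 8.09e-06). For Slc2a1, the log2 change was -1.64 in the second batch and -3.55 in the first (adjusted p of the difference = 0.0165), and without NTC p31 the change was -3.47. The phosphoglycerate kinase Pgk1 had 2677, 2781, 3357 and 2161 in FNV, against 21185, 22912 and 12486 in NTC libraries (log2 change -2.69 ± 0.18, adjusted p = 5.47e-08). Pkm, pyruvate kinase, had 9102, 9368, 11386 and 13688 in FNV, against 30387, 30387 and 40741 in NTC libraries (log2 change -1.71 ± 0.13, adjusted p = 1.22e-07). At the end of the pathway, Ldhb had 287, 301, 381 and 72 in FNV, against 6700, 6700 and 2074 in NTC libraries (log2 change -4.08 ± 0.43, adjusted p = 4.08e-06). Ldha had 4669, 4733, 5154 and 4307 in FNV, against 19699, 19699 and 6700 in NTC libraries (log2 change -1.50 ± 0.27, adjusted p = 0.000416). For Ldha, the log2 change was -0.51 in the second batch and -2.07 in the first (adjusted p of the difference = 0.000396), and without NTC p31 the change was -2.15. In both lactate dehydrogenases NTC p31 lay nearest to the FNV libraries. Pdk1, the kinase that inhibits pyruvate dehydrogenase, had 450, 518, 431 and 264 in FNV, against 2621, 2621 and 1774 in NTC libraries (log2 change -2.45 ± 0.14, adjusted p = 1.37e-08). The lactate exporter Slc16a3 (MCT4) had 17, 16, 77 and 15 in FNV, against 2566, 3108 and 991 in NTC libraries (log2 change -6.35 ± 0.71, adjusted p = 8.54e-06), a change of -7.19 without NTC p31. In each of these 7 genes the groups did not overlap, but they were taken by a rule that required it or after their values were seen. Over the list, 14 of the 26 genes were lower without overlap and 1 higher, against 15.6% and 16.0% of all genes. NTC p31 was the lowest NTC library of the 7 genes in all but Pkm. The muscle-type phosphofructokinase Pfkm went the other way, with 973, 857, 1076 and 936 in FNV, against 505, 567 and 361 in NTC libraries (log2 change 1.05 ± 0.13, adjusted p = 2.22e-05). By the test of the difference, 6 of the 26 genes had a higher log2 change in the second batch than in the first and 0 a lower one, against 4.77% and 4.43% of all genes. Averaging replicates 1 and 2 left 13 genes lower and 1 higher, and 1 was higher without NTC replicate 1 or 2. In the second batch alone Slc2a1, Ldha and Slc16a3 did not pass. Genes of the respiratory chain changed at under the background rate: of 33, 6 rose and 4 fell (2 fell with averaging), none by 2-fold, with Uqcrc1 of complex III at 4901, 4901, 4732 and 4901 in FNV, against 3034, 3134 and 3481 in NTC libraries (log2 change 0.60 ± 0.09, adjusted p = 0.000132). SOX2-rescued cells in 2i had Pgk1 at 4409, 4233, 4048 and 2697 and Pdk1 at 508, 493, 535 and 444. Between FNV and SOX2-rescued cells, 7 glycolysis genes were lower and 2 higher (median -0.23) against 12.9% and 12.4% of all genes, with Pgk1 at a log2 difference of -0.48 ± 0.17 (adjusted p = 0.0477) and Pdk1 at -0.29 ± 0.13 (adjusted p = 0.125).

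**Figure D4:**
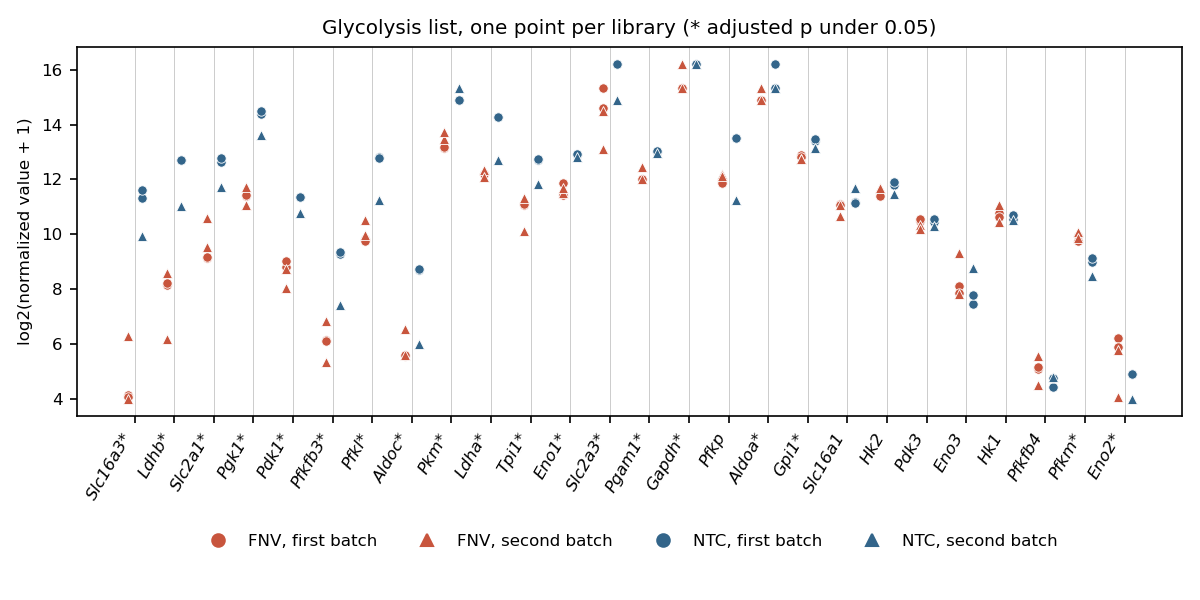
Log2(normalized value + 1) of the 26 glycolysis genes, ordered by log2 change, one point per library, FNV left of NTC at each gene, circles for the first and triangles for the second batch. Genes with an asterisk changed at an adjusted p under 0.05; from Slc16a3 to Tpi1 most FNV points lie below the NTC points, and NTC p31 is often the lowest NTC library.

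Epithelial junction genes were higher. Tight junctions and desmosomes seal and anchor neighbouring epithelial cells, and embryonic stem cells themselves express part of this set. Of 32 genes 19 rose and 5 fell (median 0.80). Epcam, an epithelial adhesion molecule, had 2698, 3326, 2268 and 1962 in FNV, against 607, 700 and 439 in NTC libraries (log2 change 2.22 ± 0.08, adjusted p = 1.98e-10). Cgn, the tight junction protein cingulin, had 886, 733, 1018 and 371 in FNV, against 151, 138 and 146 in NTC libraries (log2 change 2.34 ± 0.27, adjusted p = 8.08e-06). The claudin Cldn7 had 129, 231, 130 and 44 in FNV, against 16, 16 and 14 in NTC libraries (log2 change 2.95 ± 0.34, adjusted p = 1e-05). In Cgn and Cldn7, FNV p31 was the lowest FNV library and still above every NTC library; neither gene passed in the second batch alone. Perp, a desmosomal protein and a target of p53, had 386, 340, 283 and 267 in FNV, against 53, 62 and 67 in NTC libraries (log2 change 2.40 ± 0.13, adjusted p = 7.05e-09). Averaging replicates 1 and 2 left 10 of the 32 genes higher and 2 lower, and without NTC replicate 1 only 3 were lower. Of 24 cadherins and protocadherins 7 rose and 5 fell (median 0.58), 2 of them lower without NTC p31. E-cadherin (Cdh1), encoded on chromosome 8, rose, with 13688, 13688, 21185 and 14818 in FNV, against 6245, 7059 and 6698 in NTC libraries (log2 change 1.17 ± 0.13, adjusted p = 7.56e-06). The planar polarity cadherin Celsr3 also rose, with 78, 82, 72 and 139 in FNV, against 7, 4 and 18 in NTC libraries (log2 change 3.13 ± 0.32, adjusted p = 2.54e-06). N-cadherin (Cdh2), typical of mesenchymal and neural cells, fell, with 37, 20, 41 and 65 in FNV, against 91, 113 and 289 in NTC libraries (log2 change -2.02 ± 0.30, adjusted p = 8.76e-05). Against SOX2-rescued cells in 2i, 16 of the 32 junction genes were higher and 2 lower in FNV cells (median 0.47). Of all genes, 12.4% were higher and 12.9% lower in that contrast. Epcam differed by 2.14 ± 0.08 (adjusted p = 2.02e-10).

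Keratins and trophectoderm genes also rose. Of 25 genes 13 rose and 4 fell (median 1.50); averaging replicates 1 and 2 left 11 higher and 2 lower. The simple-epithelium keratin pair was higher in every FNV library. Krt8 had 3513, 3770, 2659 and 2761 in FNV, against 381, 355 and 958 in NTC libraries (log2 change 2.49 ± 0.35, adjusted p = 5.7e-05). Its partner Krt18 had 2601, 2743, 2394 and 1110 in FNV, against 324, 336 and 585 in NTC libraries (log2 change 2.32 ± 0.36, adjusted p = 0.000119). For Krt8, the log2 change was 1.50 in the second batch and 3.30 in the first (adjusted p of the difference = 0.000921). Krt18 did not pass in the second batch alone. The sodium pump subunit Atp1b1, which the trophectoderm uses to fill the blastocoel, went against the list, with 1022, 1119, 1269 and 1509 in FNV, against 3579, 3536 and 3438 in NTC libraries (log2 change -1.54 ± 0.14, adjusted p = 6.93e-07). Summed over the 25 genes, values were 19106 to 26219 in FNV and 11508 to 13311 in NTC libraries.

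Matrix receptors and matrix proteins moved in different directions. Of 35 basement membrane and integrin genes 16 rose and 8 fell (median 0.26). The integrin chain Itga3, which binds laminin, had 1136, 1178, 855 and 613 in FNV, against 44, 42 and 85 in NTC libraries (log2 change 4.12 ± 0.27, adjusted p = 4.91e-08). For Itga3, the log2 change was 3.08 in the second batch and 4.72 in the first (adjusted p of the difference = 0.000646), and the change was 4.78 without NTC p31. The fibronectin receptor chain Itga5 had 1823, 1981, 1591 and 1694 in FNV, against 593, 663 and 433 in NTC libraries (log2 change 1.70 ± 0.14, adjusted p = 4.32e-07). Itgb4, the laminin receptor chain of hemidesmosomes, had 442, 443, 374 and 292 in FNV, against 102, 140 and 84 in NTC libraries (log2 change 1.88 ± 0.22, adjusted p = 1.23e-05). By contrast, the paired collagen IV chains, which lie next to each other on chromosome 8, fell: Col4a1 had 121, 84, 462 and 694 in FNV, against 1475, 1521 and 2954 in NTC libraries (log2 change -3.18 ± 0.45, adjusted p = 6.92e-05). Col4a2 had 108, 85, 464 and 451 in FNV, against 1146, 1106 and 1857 in NTC libraries (log2 change -2.81 ± 0.49, adjusted p = 0.000393). The annotated ends of these genes overlap and the strand setting of the counting is not given, so reads there may be assigned uncertainly. SOX2-rescued cells in 2i had Itga3 at 1049, 1162, 547 and 622 and Col4a1 at 348, 352, 766 and 215. Between FNV and SOX2-rescued cells no difference was called for Itga3 (adjusted p = 0.627), Itga5 (0.135), Itgb4 (0.138), Col4a1 (0.283) or Col4a2 (0.551). In both collagens the second-batch FNV libraries lay between the first-batch FNV libraries and the NTC libraries, and neither passed in the second batch alone. Of 20 primitive and visceral endoderm genes, a programme that native SOX17 takes part in, 8 rose and 4 fell (median 0.32), 2 lower without NTC p31; their summed values were 39141 to 44042 in FNV and 23802 to 31141 in NTC libraries.

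Lysosomal genes were mostly higher. Of 29 genes of endocytosis and the lysosome 16 rose and 3 fell (median 0.51). Ctsc, the lysosomal protease cathepsin C, had 4087, 4306, 7795 and 6245 in FNV, against 654, 667 and 572 in NTC libraries (log2 change 3.02 ± 0.16, adjusted p = 4.44e-09). For Ctsc, the log2 change was 3.61 in the second batch and 2.67 in the first (adjusted p of the difference = 0.00569). Of the 3 that fell, Scarb2, a lysosomal membrane protein, had 291, 329, 392 and 404 in FNV, against 1033, 1103 and 651 in NTC libraries (log2 change -1.33 ± 0.18, adjusted p = 4.86e-05). For Scarb2, the log2 change was -0.71 in the second batch and -1.78 in the first (adjusted p of the difference = 0.00849). Scarb2 did not pass in the second batch alone, where NTC p31 lay between the first-batch NTC libraries and the FNV libraries.

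Neuroectoderm genes were mostly lower, and guidance genes moved both ways. Of 12 neuroectoderm genes 6 fell and 2 rose (median -1.07); averaging replicates 1 and 2 left 3 lower, and 1 rose in every fit that left out NTC replicate 1 or an FNV library. Tubb3, neuronal beta-tubulin, on chromosome 8, had 13, 12, 14 and 40 in FNV, against 203, 199 and 1178 in NTC libraries (log2 change -4.57 ± 0.33, adjusted p = 8.5e-08). Dcx was listed at 0 in every FNV library, but its NTC values are not given here and a listed 0 does not show absence. The marker sum was 691 to 1260 in FNV and 1029 to 2701 in NTC libraries. Of 42 axon guidance genes 14 fell and 10 rose (median -0.03), and averaging left 9 lower. Slit3, a repellent ligand, had 19, 18, 25 and 20 in FNV, against 327, 294 and 491 in NTC libraries (log2 change -4.09 ± 0.27, adjusted p = 4.47e-08). Robo4, a receptor of the same system known from vessels, had 45, 42, 16 and 40 in FNV, against 1, 1 and 1 in NTC libraries (log2 change 4.13 ± 0.34, adjusted p = 3.25e-07). Of 18 Eph receptors and ephrins 7 fell and 4 rose (median -0.35), and averaging left 4 lower. Ephb4, also a receptor of vessels and progenitors, had 336, 300, 647 and 477 in FNV, against 2037, 2169 and 1174 in NTC libraries (log2 change -2.05 ± 0.26, adjusted p = 1.79e-05). For Ephb4, the log2 change was -1.08 in the second batch and -2.72 in the first (adjusted p of the difference = 0.00566). Ephb2 had 145, 167, 88 and 49 in FNV, against 21, 24 and 27 in NTC libraries (log2 change 2.18 ± 0.29, adjusted p = 3.45e-05). Neither Eph receptor passed in the second batch alone. Of 11 measured Sox genes 6 fell, among them Sox2 and Sox21, and 1 rose, Sox17 itself.

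ERK feedback genes and Wnt targets were mostly lower. Of 19 ERK feedback genes and targets 12 fell and 1 rose (median -0.89); the 1 gene was not called without NTC replicate 1, NTC replicate 2, FNV replicate 1, FNV replicate 2 or FNV p31, and 2 rose without FNV p21. Dusp6, an ERK phosphatase induced by ERK itself, had 28, 20, 8 and 58 in FNV, against 193, 172 and 303 in NTC libraries (log2 change -3.27 ± 0.46, adjusted p = 5.1e-05). Of 16 FGF ligands and receptors 3 fell and 2 rose (median -0.30; 5 fell without FNV p21). Fgf3, a ligand, had 2, 3, 3 and 3 in FNV, against 96, 87 and 93 in NTC libraries (log2 change -4.65 ± 0.31, adjusted p = 5.2e-08). Of 18 Wnt targets 10 fell and 3 rose (median -0.87; 1 rose without NTC replicate 2, FNV replicate 1 or FNV replicate 2). Notum, a secreted Wnt inhibitor, had 8, 7, 13 and 7 in FNV, against 100, 70 and 365 in NTC libraries, a log2 change of -4.01 that was -3.38 without NTC p31. Rnf43, a ubiquitin ligase that removes Wnt receptors, rose, with 262, 195, 214 and 46 in FNV, against 21, 20 and 10 in NTC libraries (log2 change 3.27 ± 0.39, adjusted p = 1.26e-05). Of 21 Wnt ligands and receptors 8 rose and 6 fell (median -0.04). Without NTC replicate 2, 5 rose, against 2761 of all genes. By the test of the difference 1 of the 21 had a higher change in the second batch and 3 a lower one. The secreted Frizzled-related antagonists parted: Sfrp1, on chromosome 8, had 2384, 2430, 2503 and 2395 in FNV, against 563, 559 and 296 in NTC libraries (log2 change 2.45 ± 0.15, adjusted p = 2.66e-08). Sfrp2 had 10, 9, 9 and 7 in FNV, against 118, 104 and 219 in NTC libraries (log2 change -3.75 ± 0.45, adjusted p = 1.24e-05). For Sfrp1, the log2 change was 3.04 in the second batch and 2.10 in the first (adjusted p of the difference = 0.000533). Without NTC p31 the change of Sfrp2 was -2.95. Dusp6 and Rnf43 did not pass in the second batch alone.

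Notch ligands parted as well. Of 21 Notch pathway genes 8 fell and 4 rose (median -0.49; 2 rose with averaging). Jag1 had 27, 33, 41 and 43 in FNV, against 280, 262 and 575 in NTC libraries (log2 change -3.31 ± 0.23, adjusted p = 6.35e-08). Jag2 had 530, 519, 298 and 98 in FNV, against 66, 94 and 46 in NTC libraries (log2 change 2.35 ± 0.31, adjusted p = 2.94e-05). Of 19 BMP pathway and Id genes 4 fell and 3 rose (median 0.18; 5 rose without FNV p21, 1 with averaging), shares near those of all genes. The type I receptor Acvr1 had 79, 80, 73 and 71 in FNV, against 221, 223 and 185 in NTC libraries (log2 change -1.41 ± 0.10, adjusted p = 6.26e-08). The signal transducer Smad9 had 32, 25, 23 and 32 in FNV, against 90, 91 and 127 in NTC libraries (log2 change -1.87 ± 0.20, adjusted p = 3.53e-06). Id4, an inhibitor of basic helix-loop-helix factors and a BMP target, had 136, 95, 114 and 104 in FNV, against 685, 611 and 443 in NTC libraries (log2 change -2.25 ± 0.23, adjusted p = 2.7e-06). In these 3 genes the groups did not overlap, which the rule that named them required. Of 23 Nodal and TGF-beta genes 8 fell and 2 rose (median -0.20), but 3 were lower with replicates 1 and 2 averaged, 4 or 5 lower without any single first-batch library, and 4 higher without FNV p31. Acvr2b, a type II receptor for activin and Nodal, had 179, 141, 193 and 155 in FNV, against 370, 355 and 424 in NTC libraries (log2 change -1.23 ± 0.11, adjusted p = 6.66e-07). The ligand Tgfb1 had 55, 50, 42 and 44 in FNV, against 9, 16 and 27 in NTC libraries (log2 change 1.45 ± 0.29, adjusted p = 0.00108). Inhbb, given above, belongs to this list. Of the genes named here, Jag2 and Tgfb1 did not pass in the second batch alone.

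G1 regulators were mostly lower. Of 24 G1 cyclins, CDKs, CDK inhibitors, pocket proteins and E2F and Myc factors 14 fell and 1 rose (median -0.69). The list holds both drivers and inhibitors of the cycle, so its count has no direction for the cycle as such. Cdk6 had 83, 82, 278 and 118 in FNV, against 426, 477 and 1298 in NTC libraries (log2 change -2.53 ± 0.29, adjusted p = 8.27e-06), and Mycl is given above. Without NTC p31 9 fell and 2 rose, without FNV p31 2 rose, and averaging left 7 lower. Of 24 p53 targets 9 rose and 5 fell (median 0.17; averaging left 2 lower). The kinase Plk2 had 681, 674, 867 and 808 in FNV, against 264, 285 and 381 in NTC libraries (log2 change 1.21 ± 0.09, adjusted p = 1.22e-07). The pro-apoptotic Bax had 2635, 2566, 2219 and 2621 in FNV, against 4034, 3863 and 3619 in NTC libraries (log2 change -0.59 ± 0.08, adjusted p = 6.89e-05).

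Polycomb genes changed at about the background rate. Of 31 Polycomb and chromatin genes 8 fell and 5 rose (median -0.20). By the test of the difference 2 of the 31 had a higher change in the second batch and 1 a lower one. Cbx7, the chromobox protein of the first Polycomb complex that prevails in stem cells, had 1134, 1201, 1198 and 1531 in FNV, against 3014, 3014 and 1972 in NTC libraries (log2 change -1.05 ± 0.14, adjusted p = 3.72e-05). For Cbx7, the log2 change was -0.54 in the second batch and -1.37 in the first (adjusted p of the difference = 0.0168). Kdm2b, which recruits a Polycomb complex to CpG islands, had 1538, 1538, 1395 and 1521 in FNV, against 560, 529 and 808 in NTC libraries (log2 change 1.21 ± 0.14, adjusted p = 8.53e-06). For Kdm2b, the log2 change was 0.85 in the second batch and 1.50 in the first (adjusted p of the difference = 0.033). Of 20 DNA methylation genes 6 rose and 6 fell (median 0.02). Tet3, an oxidase of methylcytosine, had 86, 57, 134 and 152 in FNV, against 217, 187 and 732 in NTC libraries (log2 change -1.87 ± 0.24, adjusted p = 2.79e-05). Gadd45a, a stress-response protein, had 78, 74, 196 and 49 in FNV, against 414, 358 and 706 in NTC libraries (log2 change -2.43 ± 0.44, adjusted p = 0.00047). Mbd2, a reader of methylated DNA, had 376, 347, 276 and 312 in FNV, against 209, 182 and 167 in NTC libraries (log2 change 0.86 ± 0.13, adjusted p = 0.000147). Cbx7 and Gadd45a did not pass in the second batch alone. Of 24 imprinted genes 9 fell and 4 rose (median -0.51; 8 rose without NTC p31). Mirg, a maternally expressed noncoding RNA of the Dlk1-Dio3 cluster, had 87, 77, 66 and 85 in FNV, against 362, 370 and 474 in NTC libraries (log2 change -2.37 ± 0.17, adjusted p = 8.77e-08). The paternally expressed genes Plagl1 and Peg10 moved apart. Plagl1 had 867, 802, 1158 and 1337 in FNV, against 3770, 3863 and 7307 in NTC libraries (log2 change -2.31 ± 0.23, adjusted p = 2.15e-06). Peg10 had 9368, 9368, 13688 and 11819 in FNV, against 1900, 2125 and 5994 in NTC libraries (log2 change 1.75 ± 0.19, adjusted p = 3.92e-06). For Peg10, the log2 change was 1.09 in the second batch and 2.22 in the first (adjusted p of the difference = 0.00673).

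Over both batches, germline, antigen presentation and Hippo genes each held more genes that rose than fell. Of 29 germline and meiosis genes 10 rose and 6 fell (median 0.17). Stra8, which starts meiosis in response to retinoic acid, had 2240, 2394, 1055 and 649 in FNV, against 165, 149 and 114 in NTC libraries (log2 change 3.49 ± 0.19, adjusted p = 8.03e-09). For Stra8, the log2 change was 2.85 in the second batch and 3.88 in the first (adjusted p of the difference = 0.0266). Tdrd12, of the piRNA pathway, had 172, 209, 241 and 159 in FNV, against 560, 529 and 495 in NTC libraries (log2 change -1.45 ± 0.13, adjusted p = 9.39e-07). Of 23 interferon and antigen presentation genes 8 rose (5 with averaging) and 6 fell (median 0.55), but in the second batch alone the median was -0.06. The peptide transporter Tap1 had 139, 125, 39 and 18 in FNV, against 9, 8 and 4 in NTC libraries (log2 change 3.27 ± 0.30, adjusted p = 9.31e-07). The class I heavy chain H2-K1 had 384, 415, 334 and 151 in FNV, against 34, 38 and 70 in NTC libraries (log2 change 2.74 ± 0.40, adjusted p = 8.24e-05). Ifitm2 had 589, 615, 695 and 615 in FNV, against 1786, 1823 and 1483 in NTC libraries (log2 change -1.41 ± 0.16, adjusted p = 7.65e-06). In Tap1 and H2-K1 both second-batch FNV libraries were below the first-batch ones and above all NTC libraries. H2-K1 has closely similar class I neighbours, so its reads may be shared out uncertainly, and it did not pass the test in the second batch alone. Of 22 Hippo and YAP genes 10 rose and 3 fell (median 0.54). The median was 0.16 in the second batch alone and 0.68 in the first. The test of the difference found 8 of the 22 with a lower change in the second batch and 2 with a higher one. Of all genes, 4.43% had a lower and 4.77% a higher change. The YAP target Ctgf had 377, 308, 460 and 404 in FNV, against 25, 20 and 85 in NTC libraries (log2 change 3.27 ± 0.27, adjusted p = 3.2e-07). For Ctgf, the log2 change was 2.33 in the second batch and 3.87 in the first (adjusted p of the difference = 0.024). The kinase Lats2, which restrains YAP and is also its target, had 211, 181, 98 and 109 in FNV, against 34, 24 and 55 in NTC libraries (log2 change 1.99 ± 0.28, adjusted p = 6.08e-05). For Lats2, the log2 change was 0.90 in the second batch and 2.73 in the first (adjusted p of the difference = 0.0043). The angiomotin Amotl1, a junctional partner of YAP, had 57, 47, 86 and 30 in FNV, against 913, 947 and 757 in NTC libraries (log2 change -3.98 ± 0.26, adjusted p = 4.02e-08).

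The counts of other lists moved between fits. Of 24 cholesterol synthesis genes 8 rose and 2 fell (median 0.27). The first batch alone gave 16 and 3, against 3431 and 3541 of all 16443 genes. Averaging left 3 higher, against 2065 of all genes. The direct test of batches found 0 of the 24 with a higher change in the second batch and 5 with a lower one, against 4.77% and 4.43% of all genes. Dhcr7, which makes the last step to cholesterol, had 646, 626, 738 and 511 in FNV, against 214, 260 and 353 in NTC libraries (log2 change 1.20 ± 0.16, adjusted p = 4.31e-05), and it did not pass in the second batch alone. Of 25 genes of the integrated stress response 5 rose and 7 fell (median -0.22). In the first batch alone 3 rose and 13 fell, against 3431 and 3541 of all 16443 genes. Without NTC p31 3 rose and 14 fell, against 3094 and 3157 of all genes. The direct test found 13 of the 25 with a higher change in the second batch and 0 with a lower one. Of all genes, 4.77% and 4.43% did so. Slc7a3, a transporter of basic amino acids, fell in both batches, with 738, 862, 1082 and 859 in FNV, against 3404, 3110 and 4732 in NTC libraries (log2 change -2.09 ± 0.16, adjusted p = 1.69e-07). Phgdh, the first enzyme of serine synthesis, had 4232, 4581, 3820 and 2151 in FNV, against 1880, 1917 and 252 in NTC libraries (log2 change 2.12 ± 0.35, adjusted p = 0.000249). For Phgdh, the log2 change was 3.50 in the second batch and 1.21 in the first (adjusted p of the difference = 0.00484), and the change was 1.40 without NTC p31. Of 22 2-cell-like genes 14 rose and 0 fell (median 1.47). But 5 rose without NTC replicate 1, against 2757 of all genes, and 6 without NTC replicate 2, against 2761. Without FNV replicate 1, FNV replicate 2 or FNV p21, 7 to 9 rose, against 2790, 2817 and 3271 of all genes. The direct test found 6 of the 22 with a lower change in the second batch and 0 with a higher one. Of all genes, 4.43% and 4.77% did so. Of 10 primitive streak and mesoderm genes 3 rose and 3 fell (median 0.18), 1 rising without NTC replicate 1 or 2 and 0 with replicates 1 and 2 averaged. Of 14 fibroblast genes 7 rose (3 with averaging) and 2 fell (median 1.12), Vim among those that fell. Of the 12 stem cell markers 4 rose and 3 fell (median 0.11). By the direct test 4 of the 12 had a higher change in the second batch and 0 a lower one, against 4.77% and 4.43% of all genes.

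Single genes differed between batches in ways that the pooled change hides. Myof, a membrane repair protein, had 2240, 2240, 2295 and 2413 in FNV, against 1509, 1487 and 413 in NTC libraries. For Myof, the log2 change was 2.51 in the second batch and 0.58 in the first (adjusted p of the difference = 2.65e-07). Tmsb4x, thymosin beta 4, had 1337, 1385, 857 and 831 in FNV, against 1516, 1526 and 6371 in NTC libraries. For Tmsb4x, the log2 change was -2.91 in the second batch and -0.16 in the first (adjusted p of the difference = 2.73e-08). Rragd, a GTPase of amino acid signalling to mTORC1, had 2395, 2464, 2112 and 2126 in FNV, against 774, 772 and 2151 in NTC libraries. For Rragd, the log2 change was -0.02 in the second batch and 1.65 in the first (adjusted p of the difference = 3.15e-06). In all 3, NTC p31 stood apart from NTC replicates 1 and 2. Without NTC p31 the changes of Myof and Tmsb4x were 0.62 and -0.24, and Tmsb4x was not called without FNV p21 (log2 change -1.09), with the 7 libraries alone, with the replicate block or in the first batch alone. Rragd was not called with the 7 libraries alone or with replicates averaged, and Myof not with the 7 libraries alone. The second batch has 1 NTC library, so a difference of that library from its group and a difference between batches cannot be told apart.

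The change from NTC was also set against the same change in serum and LIF without 2i, where 2 FNV and 2 NTC libraries exist. The level of the rescue factor was not matched between media: in FNV libraries Sox17 stood at 13693 and 30391 without 2i, above all FNV libraries in 2i, and the part of this difference in the results was not tested. The change differed between media for 4250 genes (25.8%). The FNV and NTC libraries without 2i are all of the first batch, while the change in 2i pools both batches. Differences between media and between batches are therefore not fully separated. Steap3, an endosomal ferrireductase, had 2016, 2092, 1737 and 1516 in FNV, against 166, 173 and 188 in NTC libraries in 2i (log2 change 3.41 ± 0.11, adjusted p = 4.71e-11) and 248 and 236 in FNV, against 543 and 565 in NTC libraries without 2i. The change was higher in 2i by 4.60 ± 0.19 on the log2 scale (adjusted p = 1.5e-09). Dgkh, a diacylglycerol kinase, had 65, 65, 74 and 91 in FNV, against 1133, 991 and 1086 in NTC libraries in 2i (log2 change -3.88 ± 0.12, adjusted p = 2.16e-11) and 628 and 469 in FNV, against 572 and 532 in NTC libraries without 2i, a difference of -3.86 ± 0.19 on the log2 scale (adjusted p = 1.76e-08). Tinagl1, a secreted matricellular protein, had 1094, 949, 1362 and 895 in FNV, against 492, 629 and 317 in NTC libraries in 2i and 8 and 8 in FNV, against 340 and 366 in NTC libraries without 2i, a difference of 6.55 ± 0.30 on the log2 scale (adjusted p = 6.84e-09). Ccnd1, cyclin D1, had 966, 1003, 1049 and 607 in FNV, against 1742, 2054 and 1261 in NTC libraries in 2i and 1341 and 1298 in FNV, against 58 and 56 in NTC libraries without 2i, a difference of -5.30 ± 0.26 on the log2 scale (adjusted p = 1.75e-08). Tinagl1 rose and Ccnd1 fell in 2i, and without 2i their FNV and NTC libraries stood in the opposite order. Ccnd1 did not pass in the second batch of 2i alone. Kctd12b, listed at 0 in FNV libraries in 2i, had 1179 and 1086 in FNV, against 1051 and 1068 in NTC libraries without 2i. By list, 16 of 25 keratin and trophectoderm genes had a higher change in 2i and 2 a lower one, and 14 and 3 of 29 lysosomal genes, against 13.4% and 12.4% of all genes; of naive genes 1 of 22 had a higher and 11 a lower change.

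Genes of chromosome 8 were higher as a whole. Their median log2 change was 0.22 over 664 genes with a mean of at least 50, against -0.08 to 0.00 on the other chromosomes, and 284 of its 851 genes (33.4%) rose and 91 (10.7%) fell. Relative to the mean of all 21 libraries, the median of chromosome 8 was 0.06 to 0.08 in FNV libraries, against -0.29 and -0.28 in NTC replicates 1 and 2 and 0.02 in NTC p31. In the 14 libraries of other groups it lay between -0.11 and 0.17. In the second batch the median change was 0.06, against 0.32 in the first. The cause was not tested. Of the genes named above, Cdh1, Col4a1, Col4a2, Tubb3 and Sfrp1 lie on this chromosome. With each library centred on each chromosome's median, 6472 genes changed, and the log2 changes of these genes were 0.94, -3.41, -3.04, -4.81 and 2.22, each with an adjusted p still under 0.05. On chromosome 14 the medians ranged from -0.24 to 0.18 over FNV libraries, lowest in p31, against -0.08 to 0.19 over NTC libraries.

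**Figure D5:**
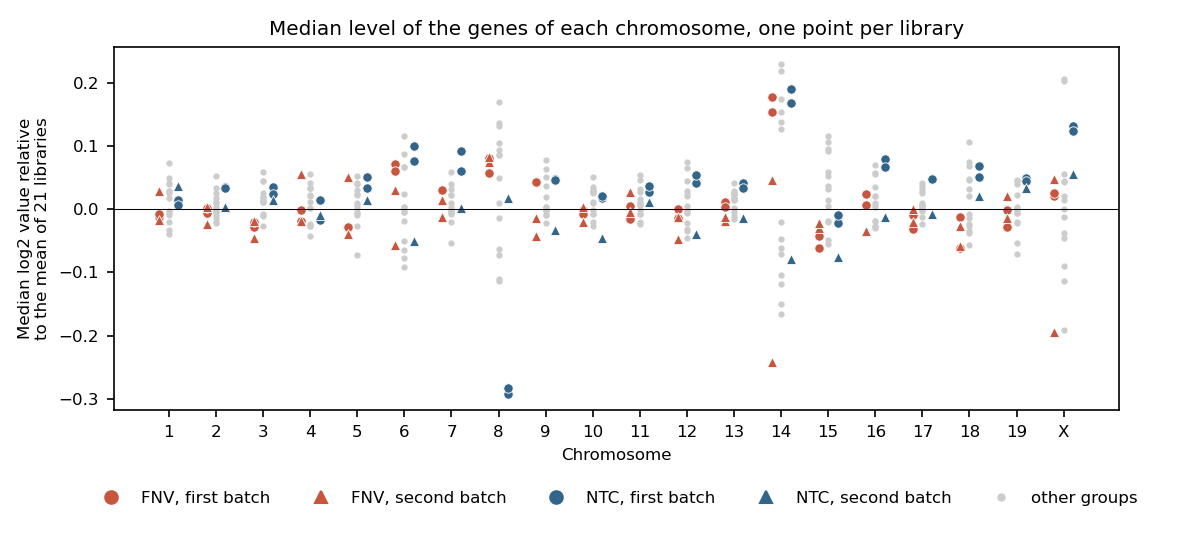
Median over the genes of each chromosome (x axis) of the log2 value relative to the mean of all 21 libraries (y axis), one point per library: FNV to the left, NTC to the right, other groups in grey between, circles for the first and triangles for the second batch. NTC replicates 1 and 2 lie at -0.29 and -0.28 on chromosome 8, apart from all other libraries.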

How the data were processed

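Poly(A) RNA-seq libraries of 2TS22C mouse embryonic stem cells were quantified by the authors with RSEM and Bowtie2 2.0 on mm10, per the submitters' processing notes; the strand setting and later steps are not given in the sources used here. The deposited table holds 1 whole-number score per gene and library. Its sorted values differ by at most 3 between libraries, so they are normalized and are not raw counts, and no count test was run. Overall shifts in RNA content cannot be seen in such values, and no interval for counting error can be given.

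From the deposited values, log2(value + 1) was modelled with limma 3.58.1 (R 4.3.3; trend and robust empirical Bayes) for group and batch over all 21 libraries, and p-values were adjusted by the Benjamini-Hochberg method over 16443 genes. Differences between batches came from a fit of each group in each batch, and differences between media from contrasts of the first model. The script was tested on simulated data. The p21 and p31 columns were matched to their group by name. Gene positions are from GENCODE M21 (GRCm38), which located all 16443 genes, 16364 under the same symbol. Tables and figures were made with pandas 2.3.3 and matplotlib 3.10.9.

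The comparison, the gene lists and the rule for named genes were chosen with earlier results of these data known. The rule takes Sox2 and Sox17; the 10 largest changes in each direction among genes that average 50 or more in whichever group is higher, with no listed 0, no overlap and the same direction in each batch; up to 3 genes per direction of each list, the largest without overlap; the 5 highest genes per direction listed at 0 in one group; and the 6 genes with the smallest adjusted p in each test of batches and media. Not every gene it takes is described, and some results are not reported here. Nanog, Pou5f1, Pgk1, Pdk1, Pkm, Ldha, Krt8, Krt18 and Cdh1 fall outside it and were chosen after their values were seen. Alternatives were other pseudocounts (0.1 and 10), a filter at a mean of 50, repeated quantile normalization, centring, the 7 libraries alone, no batch term, each batch alone, first-batch replicates averaged, a replicate block and each library left out; centring by chromosome and the list counts under each alternative were added after seeing the data.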

Additional observations from a re-analysis of the deposited data

Results flagged for a closer look

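In 19 of the 116 genes given in the report 1 FNV library stood farther from the other 3 than Dixon's 95% limit for 4 values allows. Chance gives about 1 such group in 20 only for independent values of equal spread. FNV replicates 1 and 2 lay closer together (SD of the log2 difference 0.15) than FNV p21 and p31 (0.436). The count is therefore not set against that rate. FNV p31 was the one in 11 of the 19 genes. Its normalized value was lower than in the other FNV libraries for Ccnd1 (607, against 966 to 1049), Krt18 (1110, against 2394 to 2743), Ldhb (72, against 287 to 381), Rnf43 (46, against 195 to 262) and Sdc3 (469, against 744 to 772). It was higher for Lin28a (120, against 32 to 38), Nptx2 (6247, against 1870 to 1932), Pou5f1 (12486, against 9718 to 10050), Rab3c (138, against 46 to 54), Sox21 (135, against 21 to 27) and Tubb3 (40, against 12 to 14). FNV p21 stood apart for Bax (2219, against 2566 to 2635), Kdm2b (1395, against 1521 to 1538), Robo4 (16, against 40 to 45), Slc16a3 (77, against 15 to 17), Tgfbi (491, against 342 to 360) and Uqcrc1 (4732, against 4901 in the other 3). FNV replicate 1 did so for Fgf3 (2, against 3) and Vim (16, against 22 to 23), where the gap is a few units.

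The change from NTC differed between batches for 1513 genes. The difference of log2 changes, second minus first batch, was -2.75 for Tmsb4x, 1.93 for Myof and -1.67 for Rragd. The change differed between media for 4250 genes. The difference, 2i minus serum and LIF alone, was 4.60 for Steap3, 6.55 for Tinagl1, -5.30 for Ccnd1 and -3.86 for Dgkh. For Kctd12b the fitted difference was -9.51, a value that depends on the pseudocount because FNV libraries in 2i are listed at 0.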

How the results depend on the processing

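The count of 6529 changed genes stayed within 1.5 times under the pseudocounts, the filter, both centrings, repeated quantile normalization, no batch term (5037), the 7 libraries alone (4473), the first batch alone (6972) and the replicate block (6135). The second batch alone gave 2922 genes (1581 higher, 1341 lower) and averaged first-batch replicates 3991 (2065 higher, 1926 lower); the 7 libraries alone gave 2195 lower. Leaving out each library gave 5452 to 6568. The 1513 genes differing between batches became 326 with the 7 libraries alone and 895 to 2775 with a library left out (895 without NTC replicate 2, 928 without NTC replicate 1, 945 without FNV replicate 2, 2775 without FNV p31); without NTC p31 the test could not be made. The 4250 genes differing between media became 2722 without a batch term and 1067 with averaging. The 4150 genes differing from SOX2 rescue became 2695 without a batch term, 835 in the second batch alone and 1550 with averaging. In the second batch alone, with 2 FNV libraries and 1 NTC library, a part of the 116 genes given in the report lost their call in the same direction. There the change of Rragd was near none (-0.02, against 0.99 over both). Postn, periostin, from the fibroblast list, turned: its log2 change was 5.30 in the second batch alone and -5.73 in the first alone. Its change of -1.26 over both batches was not called. The causes were not tested. The replicate numbers were not treated as pairing the libraries: deviations of same-numbered libraries correlated at 0.017 between FNV and NTC, -0.034 between FNV and SOX2 and -0.005 between NTC and SOX2, and at 0.109 for the p31 libraries of FNV and SOX2; FNV p31 and NTC p31 could not be compared in this way, since NTC has no second library in that batch.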
